A study of Homo sapiens with 14 samples.

Results

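The IFIT and IFITM genes are 2 families of interferon-induced antiviral genes, and their 7 members measured here were IFIT1, IFIT2, IFIT3 and IFIT5, and IFITM1, IFITM2 and IFITM3. They were chosen by symbol, as 7 of the 58051 genes listed in the count tables of both cell lines. The libraries came from MM1.S and H929, established human multiple myeloma lines that were grown in RPMI medium with 10% FBS. All cells, controls included, had been transduced with lentivirus, which carried either a scramble control hairpin or a hairpin against ZBP1, a sensor of Z-form nucleic acids. In MM1.S, 1 scramble group served as control for both shRNA1 and shRNA2. In H929, each hairpin had a scramble group of its own. Each of the 7 groups held 2 libraries, for 6 MM1.S and 8 H929 libraries. No untransduced cells were analysed here, so an effect of transduction shared by all groups cannot be seen, and the hairpins lower ZBP1 without removing it. The labels do not state whether the libraries of a group are separate cultures, and a p-value here therefore measures only spread between libraries, which may be technical.

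IFIT proteins are cytosolic and bind RNA that lacks the marks of the cell's own messages. IFIT1 binds the cap of messages without 2'-O methylation and blocks their translation, IFIT3 stabilises IFIT1, IFIT2 joins them in a complex, and IFIT5 binds RNA with a free 5' phosphate. IFITM proteins sit in membranes and hinder fusion of enveloped viruses, IFITM1 mainly at the cell surface and IFITM2 and IFITM3 mainly in endosomes. Both families are transcribed when interferon receptors activate JAK kinases and transcription factors bind a response element near their start sites. IFITM1 is also known as a partner of CD81 in B cells.

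The 4 IFIT genes lie together on the plus strand of chromosome 10 (GRCh38, GENCODE release 29): IFIT2 (ENSG00000119922) from 89283694 to 89309276, IFIT3 (ENSG00000119917) from 89327894 to 89340971, IFIT1 (ENSG00000185745) from 89392546 to 89406486 and IFIT5 (ENSG00000152778) from 89414586 to 89421001. The 3 IFITM genes lie on chromosome 11, with IFITM2 (ENSG00000185201) from 307631 to 315272 and IFITM1 (ENSG00000185885) from 313506 to 315272 on the plus strand, and IFITM3 (ENSG00000142089) from 319669 to 327537 on the minus strand. The response-element core was searched as GAAANNGAAA on both strands, the reverse reading TTTCNNTTTC, in RefSeq promoter windows of 300 bases (GRCh38.p14), which reach from 250 bases before the start site to 50 after it. It occurred in 3.57% of 35116 windows, and 0.26% of windows held 2 or more matches. Of the other interferon-stimulated genes listed here, 26 had a window and 19 of these held a match in any of their windows. That count is per gene, while the shares above are per window. IFIT1, IFITM1 and IFITM3 held 2 matches each, IFIT5 held 3, and IFIT3 held 2 at each of its 2 annotated starts. The windows of IFIT2 and IFITM2 were not analysed here. Windows of 30 bases around the matches are printed 5′ to 3′ on the gene's strand, with the matches in capitals, since they are the letters the families share.
IFIT1, chr10:89392504-89392533: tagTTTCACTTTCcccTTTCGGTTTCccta
IFIT3, first start, chr10:89327831-89327860: agccgttaggTTTCATTTTCctcctcccaa
IFIT3, first start, chr10:89327865-89327894: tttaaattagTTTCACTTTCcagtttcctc
IFIT3, second start, chr10:89332425-89332454: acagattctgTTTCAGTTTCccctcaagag
IFIT3, second start, chr10:89332468-89332497: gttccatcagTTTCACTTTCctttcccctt
IFIT5, chr10:89414513-89414542: ttctattaagTTTCGGTTTCtgaagcttac
IFIT5, chr10:89414547-89414576: agTTTCGATTTCttaagTTTCAGTTTCtga
IFITM1, chr11:313990-314019: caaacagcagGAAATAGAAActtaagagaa
IFITM1, chr11:314024-314053: acacttctgaGAAACTGAAAcgacagggga
IFITM3, chr11:320884-320913: gGAAAAGGAAActgttgaGAAACCGAAAct

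The IFIT matches read as TTTCNNTTTC on the gene's strand, and the IFITM matches as GAAANNGAAA. A match is a run of letters and was not measured as a site of binding.

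**Figure D1:**
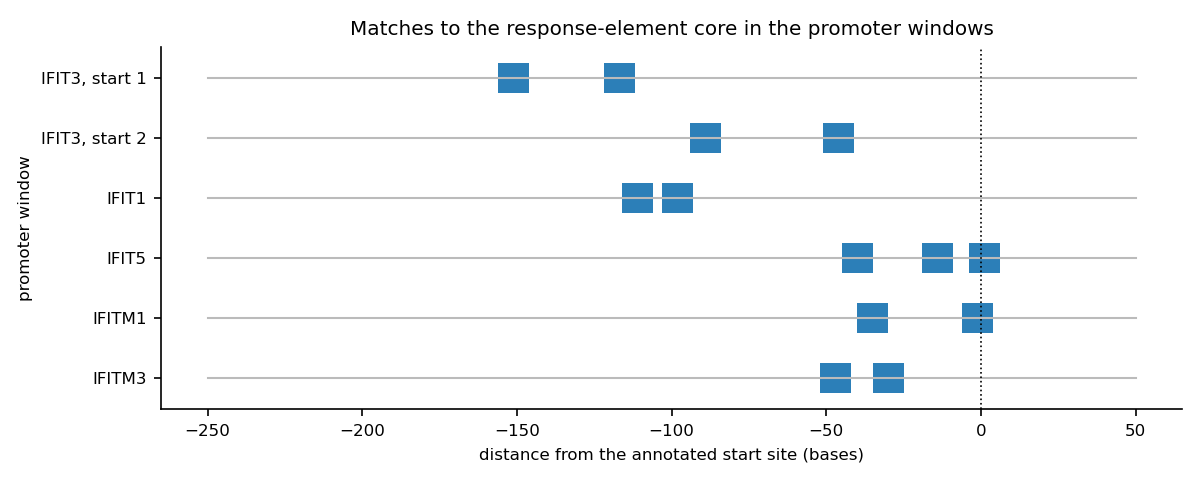
Positions of matches to the response-element core (bars) along each promoter window (grey lines, 250 bases before to 50 after the start site, x axis in bases). IFIT5 holds 3 matches, the other windows 2 each, and those of IFIT5, IFITM1 and IFITM3 lie nearer the start site than those of IFIT1.

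The libraries held 20.46 to 28.42 M reads in genes in MM1.S and 15.93 to 22.25 M in H929. ZBP1 stood at 129.3 to 140.3 counts per 1 M reads in genes (CPM) with scramble in MM1.S, 23.1 to 26.8 with shRNA1 and 15.4 to 18.0 with shRNA2. In H929 it stood at 259.8 to 268 and 109.5 to 128.8 CPM for shRNA1's control and shRNA1, and at 194.2 to 202.9 and 69.2 to 75.1 for shRNA2's. All 9 plasma cell markers were at 10 CPM or more in every library of both lines. Of 13 markers of other cell types, 8 stayed under 1 CPM in every MM1.S library and 9 in every H929 library. Their summed level was 10.9 to 15.2 CPM in MM1.S, with overlapping groups. In H929 it was 17.7 to 20.01 CPM in the scramble for shRNA1 and 55.6 to 56.4 with shRNA1, and 10.4 to 12.5 in the scramble for shRNA2 and 27.9 to 35.4 with shRNA2. In H929, COL1A1 reached 34.8 CPM with shRNA1 and CD3E 31.2 CPM with shRNA2, the largest parts of those sums, while CD3D, COL1A2 and HBA1 stayed at or under 0.109 CPM. Its part in the H929 results was not tested. In bulk RNA, fewer cells expressing a gene and less RNA per cell cannot be told apart.

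Reads of the members can be shared. IFITM1 and IFITM2 share 351 exon bases on the same strand, 32.5% of the exon length of IFITM1 and 22.7% of that of IFITM2. The coding sequences of the IFITM genes were 86.6% to 93.9% identical, with exact shared stretches of 99 to 141 bases. Those of the IFIT genes were 61.7% to 73.0% identical, with stretches of 14 to 26 bases. The counting tool is not given in the sources used here, so how shared IFITM reads were divided is unknown and the IFITM values are uncertain.

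The members stood in a different order in the lines. In H929, IFITM1 led the families in the scramble for shRNA1, at 65.6 ± 13.3 RPKM (CPM per kilobase of exon; SD, n = 2), ahead of IFIT3 at 25.4 ± 5.20, IFIT1 at 13.4 ± 4.52, IFIT5 at 4.08 ± 0.923, IFIT2 at 1.90 ± 0.168, IFITM2 at 0.919 ± 0.540 and IFITM3 at 0.281 ± 0.037. The libraries of neighbours in that order did not overlap. IFITM1 also led with shRNA1, at 22.8 ± 0.23 RPKM. In the scramble for shRNA2, IFIT3 at 13.1 ± 4.04 and IFITM1 at 12.4 ± 4.99 overlapped. With shRNA2, IFITM1 at 2.49 ± 1.37 stood behind IFIT3, IFIT1 and IFIT5, so its lead did not hold in all H929 groups. In MM1.S with scramble, IFIT5 led at 3.02 ± 0.437 RPKM, ahead of IFIT3 at 1.40 ± 0.051 and IFIT1 at 0.557 ± 0.033. IFITM1, IFITM2, IFIT2 and IFITM3 were under 0.1 RPKM on average, and IFITM1 and IFITM2 overlapped. IFIT1, IFIT2, IFIT3 and IFITM1 were higher in every H929 library than in any MM1.S library. The ranges of the other members overlapped between the lines, at 2.71 to 7.17 RPKM in MM1.S and 1.07 to 4.91 in H929 for IFIT5 and at 0.0475 to 0.919 and 0 to 1.30 for IFITM2. IFITM3 had 0 to 2 reads in every MM1.S library and 0 to 20 in every H929 library. The tables of the lines were made separately, so these levels are set side by side as a description.

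**Figure D2:**
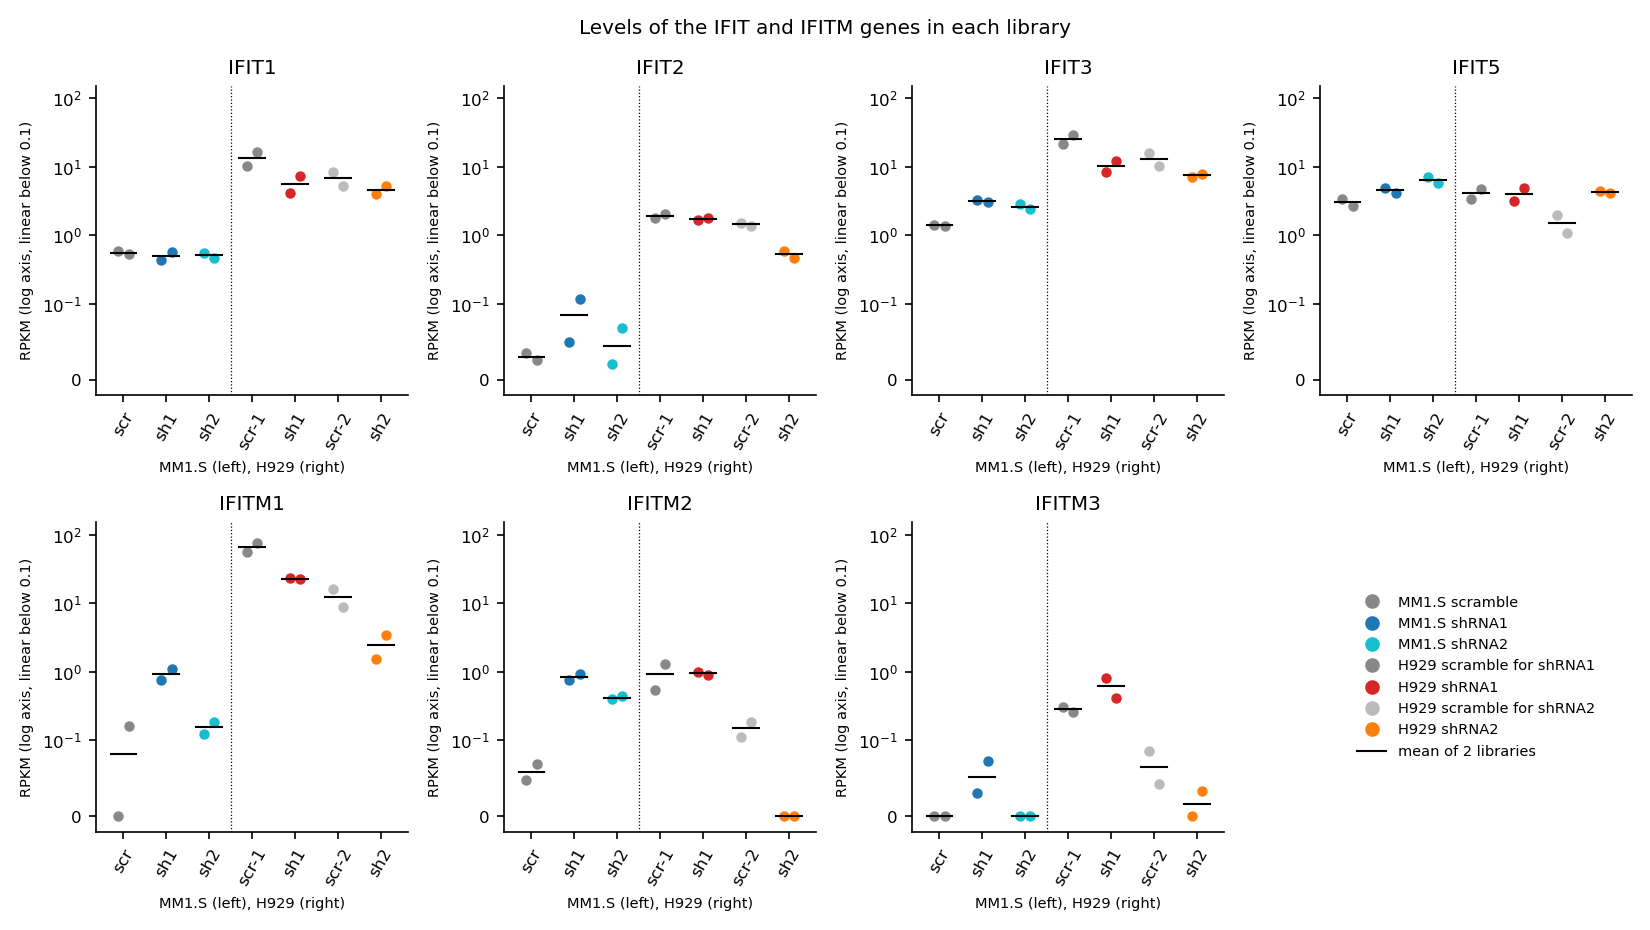
Level of each gene in each library, in RPKM on an axis that is logarithmic above 0.1 and linear below (points: libraries, lines: means of 2). IFITM1 spans 1.52 to 75.0 RPKM in H929 and 0 to 1.09 in MM1.S, while the ranges of IFIT5 overlap between the lines.

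In MM1.S, IFIT3 rose with both hairpins and IFIT5 rose with shRNA2, and none of IFIT1, IFIT3 and IFIT5 was called lower. IFITM2 was called higher with both hairpins and IFITM1 with shRNA1, but their control reads were too few for a fall to be seen. IFIT2 and IFITM3 were not tested. IFIT3 had 3.78 and 3.59 CPM with scramble, 8.57 and 7.97 with shRNA1, and 7.50 and 6.26 with shRNA2. Every knockdown library was above both controls, and the log2 fold changes, knockdown over scramble with standard error, were 1.05 ± 0.18 (edgeR adjusted p = 0.00299) for shRNA1 and 0.79 ± 0.18 (edgeR adjusted p = 0.0106) for shRNA2, or 2.07-fold and 1.73-fold. Without the first shRNA2 library the second was 0.69 (edgeR adjusted p = 0.0813).

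IFIT5 had 13.4 and 10.9 CPM with scramble, 19.8 and 16.7 with shRNA1, and 28.8 and 23.0 with shRNA2. All 4 knockdown libraries were above the controls, by 0.47 ± 0.18 with shRNA1 (edgeR adjusted p = 0.0707) and 0.99 ± 0.18 with shRNA2 (edgeR adjusted p = 0.00414). Blocking on replicate number, the shRNA1 value of 0.47 passed (edgeR adjusted p = 0.00124), as did 0.65 without the first scramble library (edgeR adjusted p = 0.0448). IFIT1 had 2.68 and 2.46 CPM with scramble, 2.01 and 2.59 with shRNA1, and 2.5 and 2.17 with shRNA2. Its groups overlapped, and its log2 fold changes of -0.28 ± 0.24 and -0.25 ± 0.24 did not pass (edgeR adjusted p = 0.389 and 0.454). In MM1.S the ratio of IFIT1 to IFIT3 reads was 0.709 and 0.686 with scramble and 0.234 to 0.346 in the knockdown libraries.

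The IFITM genes in MM1.S were near the limit of detection. IFITM2 had 2 and 3 reads with scramble, 28 and 29 with shRNA1, and 14 and 17 with shRNA2. The groups did not overlap. With shRNA1 the log2 fold change was 3.65 ± 0.45 (edgeR adjusted p = 0.000682), and with shRNA2 it was 2.69 ± 0.48 (edgeR adjusted p = 0.00404). IFITM1 had 0 and 5 reads with scramble, 20 and 24 with shRNA1, and 3 and 5 with shRNA2. It rose with shRNA1 by 3.28 ± 0.77 (edgeR adjusted p = 0.0120). That value was 2.36 without the first scramble library and 7.54 without the second, and DESeq2 gave it no adjusted p. Its shRNA2 libraries overlapped the controls (0.77 ± 1.01, edgeR adjusted p = 0.582; -0.15 without the first scramble library and 5.03 without the second). Both genes passed the filter on low counts through the libraries where they were high, so they had to differ to be tested. IFIT2, with 2 to 10 reads in each library, and IFITM3 did not pass the filter.

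Of the 3 members with 10 reads or more in every MM1.S library, IFIT1, IFIT3 and IFIT5, 1 was higher with shRNA1 and 0 lower, beside 17.8% higher and 19.7% lower among all 17820 tested genes. With shRNA2, 2 were higher and 0 lower, beside 14.9% and 21.7%. With the replicate block 59.4% and 58.8% of all genes were called in either direction, so a call of IFIT5 with shRNA1 under the block stands beside a larger share of all genes. The median over all genes was 0.002 and -0.027. Both comparisons use the same 2 scramble libraries. Between the hairpins, where 36.8% of genes were called in either direction, IFITM1 was lower with shRNA2 than with shRNA1 (-2.51 ± 0.71, edgeR adjusted p = 0.0262). That call was lost without the second shRNA1 library (-2.24, edgeR adjusted p = 0.0920), the first shRNA2 library (-2.23, edgeR adjusted p = 0.124) or the second (-2.88, edgeR adjusted p = 0.0850). It was also lost on all libraries with DESeq2 (-2.54, adjusted p = 0.0632) and with limma (-2.29, adjusted p = 0.0571), at a similar size. With the replicate block, where 58.2% of genes were called, IFIT5 was higher (0.51, edgeR adjusted p = 0.000572) and IFITM2 lower (-0.96, edgeR adjusted p = 0.0333) with shRNA2 than with shRNA1. In the edgeR fit without the block neither passed (adjusted p = 0.0530 and 0.0570). IFIT5 did pass without the block under median-of-ratios scaling, DESeq2, limma, no filter or only the compared groups, with adjusted p from 0.02 to 0.0493.

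In H929, IFITM1, IFIT1 and IFIT3 fell with both hairpins against their own scramble groups. IFITM1 had 60.6 and 81.0 CPM in the scramble for shRNA1 and 24.8 and 24.4 with shRNA1. It had 17.2 and 9.55 CPM in the scramble for shRNA2 and 1.65 and 3.73 with shRNA2. Neither knockdown group overlapped its own control, and 34.7% and 20.1% of the control level remained. The log2 fold changes, on the scale of log2(value + 1), were -1.67 ± 0.28 with shRNA1 (limma adjusted p = 0.000121), and for shRNA2 -2.5 ± 0.28 (limma adjusted p = 3.91e-06).

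IFIT3 had 57.4 and 76.8 CPM in the scramble for shRNA1 and 21.9 and 32.1 with shRNA1, and 42.2 and 27.1 in the scramble for shRNA2 and 18.4 and 20.8 with shRNA2. The groups did not overlap, and the changes were -1.48 ± 0.19 (limma adjusted p = 6.22e-06) for shRNA1 and, for shRNA2, -0.94 ± 0.19 (limma adjusted p = 0.000780). IFIT1 had 47.1 and 76.6 CPM in the scramble for shRNA1 and 19.0 and 33.3 with shRNA1, a change of -1.41 ± 0.25 (limma adjusted p = 0.000170). Its values were 38.7 and 23.8 in the scramble for shRNA2 and 18.6 and 24.2 with shRNA2, which overlapped, with a change of -0.68 ± 0.25 (limma adjusted p = 0.0385). That call was lost without the first scramble library (-0.35, limma adjusted p = 0.409) or the first shRNA2 library (-0.50, limma adjusted p = 0.237). Unlike in MM1.S, the ratio of IFIT1 to IFIT3 reads stayed between 0.82 and 1.162 in all H929 libraries.

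IFIT2 and IFIT5 changed with shRNA2 in H929, in opposite directions. IFIT2 had 7.29 and 8.26 CPM in the scramble for shRNA1 and 6.77 and 7.41 with shRNA1, which overlapped (-0.29 ± 0.19, limma adjusted p = 0.226). With shRNA2 it had 2.42 and 1.93 CPM, below the 6.26 and 5.50 of its control (-1.57 ± 0.19, limma adjusted p = 8.90e-06). IFIT5 had 13.7 and 19.0 CPM in the scramble for shRNA1 and 12.6 and 19.7 with shRNA1 (-0.20 ± 0.24, limma adjusted p = 0.520). With shRNA2 it had 17.8 and 16.4 CPM, above the 7.95 and 4.28 of its control (1.38 ± 0.24, limma adjusted p = 0.000249).

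IFITM2 had 14 and 35 reads in the scramble for shRNA1 and 28 and 22 with shRNA1 (0.01 ± 0.54, limma adjusted p = 0.994). It had 3 and 5 reads in the scramble for shRNA2 and 0 in both shRNA2 libraries. Against a floor of 3 reads over the shRNA2 group, the 8 reads of its control give a 3.22-fold lower level. The counting error of those 8 reads is left out, so this is not a strict lower bound. The fit called it lower (limma adjusted p = 0.00221), but not with a pseudocount of 5 (-0.87, limma adjusted p = 0.0512). IFITM3, with 7 and 6 reads in the scramble for shRNA1, 20 and 9 with shRNA1, 2 and 1 in the scramble for shRNA2 and 0 and 1 with shRNA2, was not tested.

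Of the 5 members with 10 reads or more in every H929 library, which leaves out IFITM2 and IFITM3, shRNA1 gave 0 higher and 3 lower, beside 25.7% higher and 27.7% lower among all 18213 genes. The shRNA2 counts were 1 higher and 4 lower, beside 18.0% and 25.0%.

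**Figure D3:**
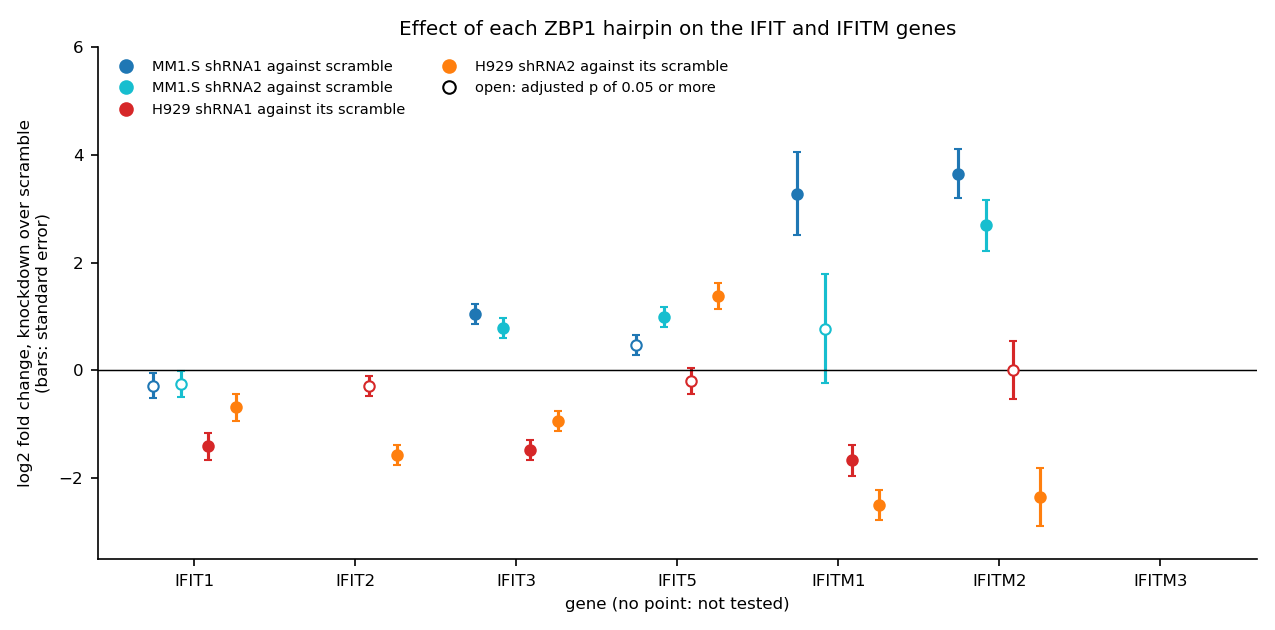
Log2 fold change of each gene with each hairpin (points, filled where the adjusted p is under 0.05; bars: standard error; y axis: knockdown over scramble). IFIT3 lies above 0 with both hairpins in MM1.S (1.05 and 0.79) and below 0 with both in H929 (-1.48 and -0.94).

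The H929 scramble groups also differed from each other in most members. The scramble for shRNA2 was lower than that for shRNA1 in IFITM1 (-2.33 ± 0.28, limma adjusted p = 2.46e-05), IFITM2 (-2.15 ± 0.54, limma adjusted p = 0.00656), IFIT5 (-1.34 ± 0.24, limma adjusted p = 0.000645), IFIT1 (-0.86 ± 0.25, limma adjusted p = 0.0158) and IFIT3 (-0.85 ± 0.19, limma adjusted p = 0.00290). Of the 5 members with 10 reads or more in every H929 library, that is 4, beside 29.9% of all genes called in either direction. IFITM2 is left out of that count. It had 3 and 5 reads in the scramble for shRNA2 and passed the filter only through the scramble for shRNA1 and the shRNA1 libraries. The control group where IFITM2 was high thus also let it be tested. IFIT2 did not pass (-0.28 ± 0.19, limma adjusted p = 0.297). For IFITM1 this value is larger than that of shRNA1 against its control. Nothing in the labels says why the scramble groups could differ.

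Each hairpin was therefore also set against the other scramble group, a comparison added after seeing the data. In it 63.8% of all genes were called in either direction for shRNA1 and 39.5% for shRNA2. IFIT3 remained lower with shRNA1 (-0.63, limma adjusted p = 0.00845) and with shRNA2 (-1.80, limma adjusted p = 2.44e-06). With shRNA1, IFITM1 turned to 0.66 (limma adjusted p = 0.0520), IFIT1 to -0.55 (limma adjusted p = 0.0652), IFIT5 to 1.15 (limma adjusted p = 0.000590) and IFITM2 to 2.16 (limma adjusted p = 0.00223). IFITM2 passed the filter only through the shRNA1 libraries and their own scramble group, so its call here is no support for a rise. Against all 4 scramble libraries, IFITM1 with shRNA1 was at -0.50 (limma adjusted p = 0.0861). With shRNA2, IFITM1 stayed lower against the other scramble group (-4.82, limma adjusted p = 7.60e-09), as did IFIT1 (-1.54, limma adjusted p = 0.000168) and IFIT2 (-1.85, limma adjusted p = 2.39e-06), and IFIT5 was at 0.04 (limma adjusted p = 0.909). Since the scramble for shRNA1 was the higher control for all 6 tested members, shRNA2 values could only become lower against it, and those values say nothing on how stable the falls with shRNA2 are. With shRNA1 the other control could only raise the values, and the fall of IFIT3 still passed. The fall of IFITM1 and IFIT1 with shRNA1 and the rise of IFIT5 with shRNA2 depended on the control group.

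**Figure D4:**
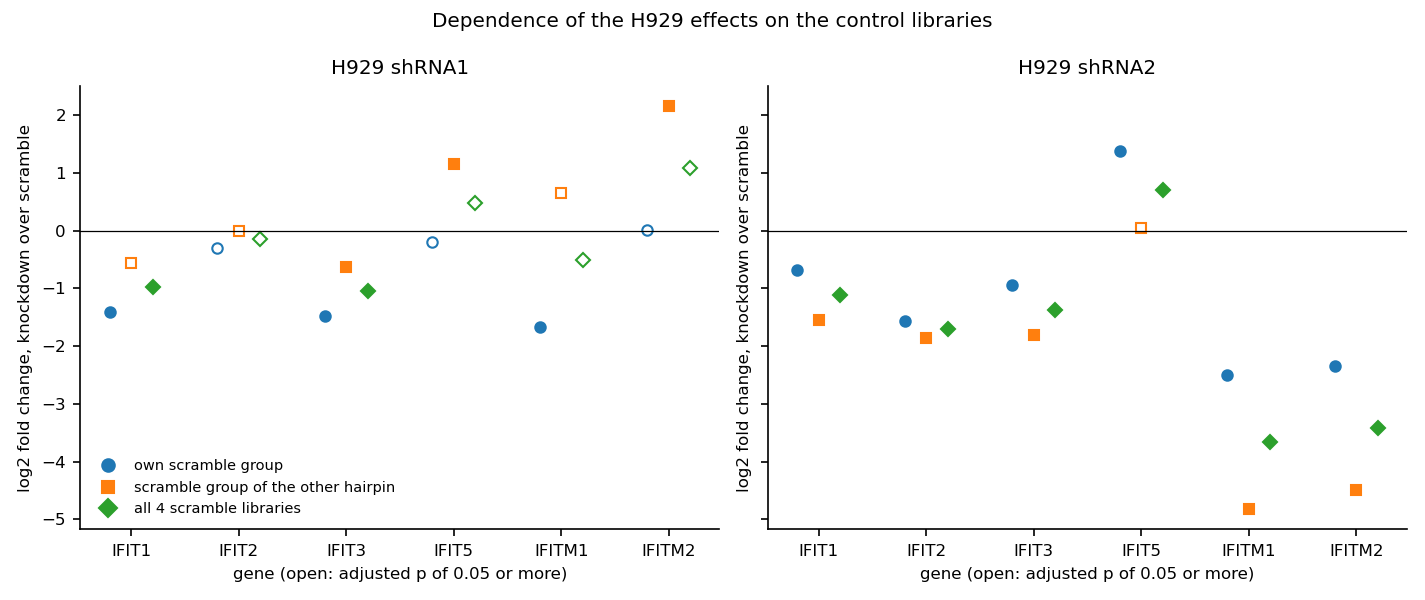
H929 log2 fold changes (y axis, knockdown over scramble) of 6 genes against the hairpin's own scramble group (circles), the other group (squares) and all 4 scramble libraries (diamonds), filled where the adjusted p is under 0.05. IFITM1 with shRNA1 moves from -1.67 to 0.66, and with shRNA2 from -2.5 to -4.82.

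The H929 hairpin effects, each against its own control, differed for IFIT2 (shRNA2 minus shRNA1, -1.28 ± 0.27, limma adjusted p = 0.00133), IFIT5 (1.58 ± 0.34, limma adjusted p = 0.00149) and IFITM2 (-2.35 ± 0.76, limma adjusted p = 0.0202), beside 41.8% of all genes called in either direction. For IFIT5 and IFITM2 the control groups differed too, as above. The IFITM2 value rests on 3 and 5 reads in the scramble for shRNA2 against 0 in both shRNA2 libraries. The difference passed the threshold for neither IFIT1 (0.74 ± 0.35, limma adjusted p = 0.107), IFIT3 (0.54 ± 0.27, limma adjusted p = 0.119) nor IFITM1 (-0.83 ± 0.40, limma adjusted p = 0.110).

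Between the lines, the effect of each hairpin was higher in MM1.S than in H929 for IFIT3, IFITM1 and IFITM2. For IFIT3 the difference, MM1.S minus H929, was 2.52 ± 0.30 for shRNA1 (limma adjusted p = 0.000116), whereas shRNA2 gave 1.75 ± 0.30 (limma adjusted p = 0.00371). For IFITM1 it was 5.04 ± 0.86 (limma adjusted p = 0.00133), then 3.58 ± 0.86 for shRNA2 (limma adjusted p = 0.0216), and for IFITM2 3.24 ± 0.61 (limma adjusted p = 0.00253), then 4.70 ± 0.61 for shRNA2 (limma adjusted p = 0.000715). The IFITM values rest on few reads in MM1.S, and that of IFITM2 with shRNA2 on 0 reads in the H929 knockdown. The MM1.S scramble libraries had 0 and 5 reads of IFITM1 and 2 and 3 of IFITM2. A fall in MM1.S like those in H929 could therefore not be seen. Where such a gene fell in H929, these low reads largely fixed the direction of its line difference. IFITM2 reached the filter only in the MM1.S knockdown libraries and in the H929 shRNA1 libraries and their control. With shRNA1 it was at 0.01 ± 0.54 in H929. Its shRNA1 line difference thus restates the rise in MM1.S and is no separate support. The IFITM1 difference with shRNA2 lost its call without the second MM1.S shRNA2 library, the first H929 scramble library or the first H929 shRNA2 library (limma adjusted p = 0.0618, 0.0871 and 0.1). The background was 21.4% of 20370 genes called in either direction for shRNA1 and 9.75% for shRNA2. For IFIT1 the values were 1.12 ± 0.42 (limma adjusted p = 0.0717), then 0.45 ± 0.42 for shRNA2 (limma adjusted p = 0.550), and for IFIT5 0.67 ± 0.38 (limma adjusted p = 0.237), then -0.38 ± 0.38 (limma adjusted p = 0.590). IFIT2 differed by 1.31 ± 0.62 and 1.80 ± 0.62 (limma adjusted p = 0.153 and 0.0871). With the replicate block, IFIT1 with shRNA1 and IFIT2 with shRNA2 passed at unchanged size (limma adjusted p = 0.0434 and 0.0395), beside 31.4% and 18.9% of all genes.

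The line differences also moved with the H929 control group. Against the scramble group of the other hairpin, a choice made after seeing the data, 24.1% of genes were called for shRNA1 and 20.3% for shRNA2. With shRNA1, IFIT3 differed by 1.66 (limma adjusted p = 0.00167) and IFITM1 by 2.71 (limma adjusted p = 0.0365), while IFITM2 lost its call at 1.09 (limma adjusted p = 0.223). With shRNA2, where this control can only enlarge the difference, the values were 2.60 for IFIT3, 5.91 for IFITM1 and 6.85 for IFITM2.

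Other genes of the interferon response were read from lists. Their counts stand beside the shares of all tested genes. In MM1.S these were 17.8% higher and 19.7% lower with shRNA1, and 14.9% and 21.7% with shRNA2. In H929 they were 25.7% and 27.7% with shRNA1, and 18.0% and 25.0% with shRNA2. A count near these shares says little about its list. Of 9 interferon ligands, IFNG alone passed the filter in MM1.S (0.42 ± 0.51 and 0.35 ± 0.51, edgeR adjusted p = 0.552 and 0.628) and 0 did in H929. Among 6 receptors, shRNA1 in MM1.S gave 4 higher and 1 lower, and shRNA2 gave 1 higher and 2 lower. IFNGR1, a chain of the interferon gamma receptor, rose with both (1.20 ± 0.18 and 0.70 ± 0.18, edgeR adjusted p = 0.00173 and 0.0185). In H929 the counts were 2 higher and 1 lower for shRNA1 and 1 higher and 2 lower for shRNA2.

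Of 9 kinases and transcription factors, shRNA1 in MM1.S gave 4 higher and 0 lower, shRNA2 gave 3 higher and 1 lower, and IRF1 and IRF7 rose with both. In H929, shRNA1 gave 1 higher and 4 lower, shRNA2 gave 0 higher and 3 lower, and IRF2 and IRF7 were among those that fell with both. IRF7, which amplifies interferon transcription, changed by 1.10 ± 0.21 and 1.55 ± 0.21 in MM1.S (edgeR adjusted p = 0.00498 and 0.00115) and by -0.46 ± 0.13 and -0.86 ± 0.13 in H929 (limma adjusted p = 0.00605 and 5.66e-05). The effect on IRF7 differed between the lines with each hairpin, by 1.58 ± 0.27 and 2.45 ± 0.27 (MM1.S minus H929, limma adjusted p = 0.00132 and 0.000241). These H929 values depend on the control: 7 of the 9 genes were lower in the scramble for shRNA2 than in that for shRNA1 and 0 higher, IRF7 by -0.99 ± 0.13 (limma adjusted p = 3.74e-05). Between these control groups 29.9% of all genes were called in either direction. Against the other scramble group, shRNA1 gave 5 higher and 1 lower and shRNA2 gave 0 higher and 7 lower. In that comparison 63.8% and 39.5% of all genes were called in either direction. IRF7 with shRNA1 then turned to 0.53 ± 0.13 (limma adjusted p = 0.00164), its line difference fell short of the threshold at 0.59 ± 0.27 (limma adjusted p = 0.136), and IRF2 with shRNA1 was at -0.14 ± 0.09 (limma adjusted p = 0.195).

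Of 31 other interferon-stimulated genes, all tested in both lines, 14 rose and 2 fell with shRNA1 in MM1.S (median 0.56) and 14 rose and 5 fell with shRNA2 (median 0.44). In H929, 2 rose and 23 fell with shRNA1 (median -1.24) and 6 rose and 14 fell with shRNA2 (median -0.30). With both hairpins, 13 rose in MM1.S and 11 fell in H929, and only MX1 was among both. DTX3L rose, and PLSCR1 and HERC5 fell, with both hairpins in both lines. MX1, a dynamin-like antiviral GTPase, rose with both hairpins in MM1.S (1.81 ± 0.12 and 1.55 ± 0.11, edgeR adjusted p = 4.53e-05 and 7.55e-05) and fell with both in H929 (-2.21 ± 0.17 and -0.74 ± 0.17, limma adjusted p = 2.33e-08 and 0.00242), as IFIT3 did. HERC5, the ligase that attaches ISG15, fell with both hairpins in MM1.S (-0.75 ± 0.14 and -0.74 ± 0.14, edgeR adjusted p = 0.00513 and 0.00572) and in H929 (-1.40 ± 0.20 and -0.85 ± 0.20, limma adjusted p = 1.67e-05 and 0.00250). Between the H929 scramble groups, 28 of the 31 were lower in the scramble for shRNA2 and 0 higher (median -1.12), beside 29.9% of all genes called. Against the other scramble group, 6 of the 31 rose and 16 fell with shRNA1 (median -0.45), and 0 rose and 27 fell with shRNA2 (median -1.40). There 63.8% and 39.5% of all genes were called in either direction.

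**Figure D5:**
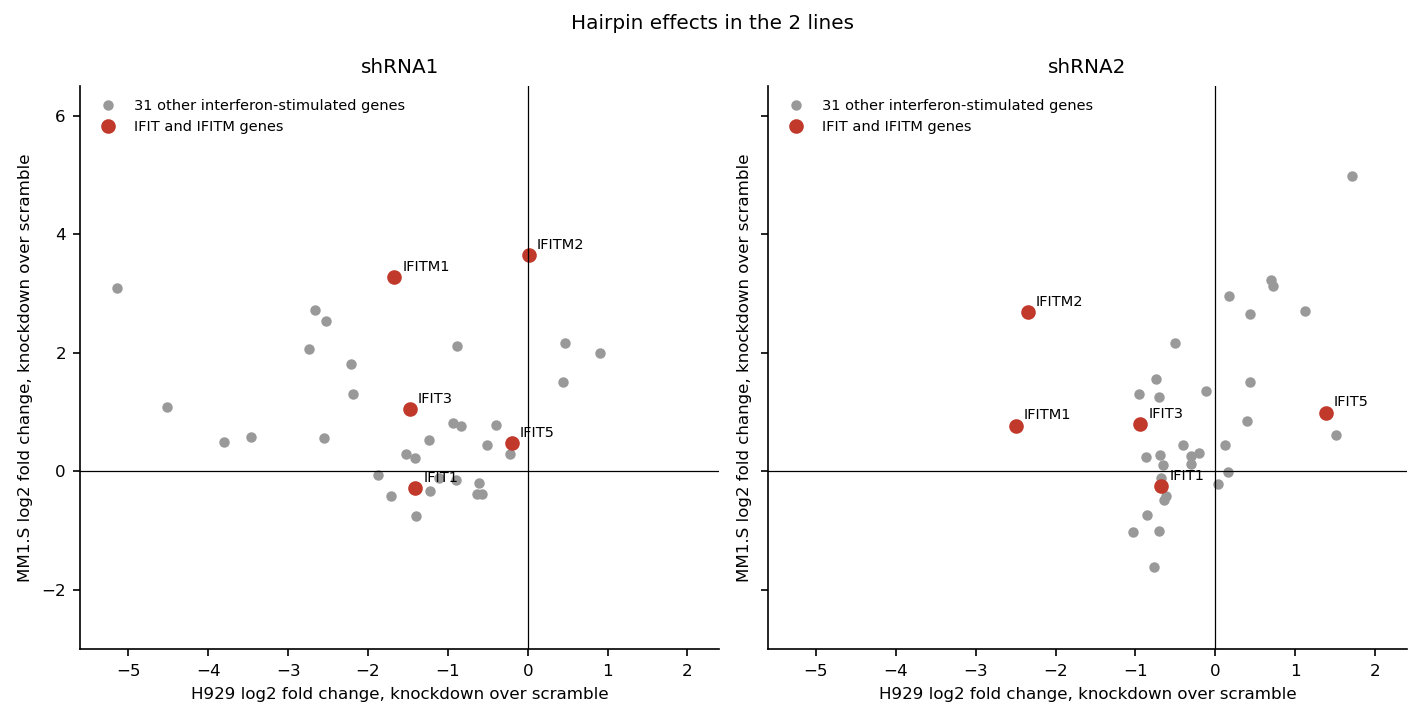
Log2 fold change in H929 (x axis) and MM1.S (y axis) for shRNA1 (left) and shRNA2 (right), for the members tested in both lines (red) and 31 other interferon-stimulated genes (grey). IFIT3 and IFITM1 lie left of 0 and above 0 in both panels, at -1.48 and 1.05 for IFIT3 with shRNA1. The MM1.S value of IFITM1 with shRNA2 did not pass the test.

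Among 6 negative regulators, 2 rose in MM1.S with shRNA1 and 0 changed with shRNA2 (edgeR). In H929, shRNA1 gave 3 higher and 2 lower, shRNA2 gave 0 higher and 3 lower, and PTPN6, a tyrosine phosphatase, fell with both (-1.96 ± 0.15 and -0.93 ± 0.15, limma adjusted p = 1.76e-08 and 9.78e-05). Of the 4 cap enzymes, whose product decides whether IFIT1 binds a message, CMTR1, which adds the first 2'-O methyl group, fell with shRNA1 in H929 (-0.88 ± 0.09, limma adjusted p = 8.52e-07) and rose with shRNA2 (0.24 ± 0.09, limma adjusted p = 0.0461), though against the other scramble group the latter was -0.21 ± 0.09 (limma adjusted p = 0.0896). RNGTT, the capping enzyme, fell with shRNA1 in MM1.S (-0.87 ± 0.17, edgeR adjusted p = 0.00498) and in H929 (-0.97 ± 0.10, limma adjusted p = 9.95e-07).

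Of the IFITM cofactors and modifiers, CD81 changed by 0.87 ± 0.23 with shRNA1 and -2.41 ± 0.28 with shRNA2 in MM1.S (edgeR adjusted p = 0.0197 and 0.000592). In H929 it changed by 0.02 ± 0.09 and -0.55 ± 0.09 (limma adjusted p = 0.834 and 0.000107). CD81 and IFITM1 were both lower with shRNA2 in H929, and both higher with shRNA1 in MM1.S, where IFITM1 had few reads. With shRNA1 in H929, IFITM1 fell against its own control (-1.67) and CD81 did not, but that fall depended on the control group. With shRNA2 in MM1.S, CD81 fell. IFITM1 had 0 and 5 reads in the MM1.S scramble libraries, so a fall of IFITM1 there could not be seen. Of the other genes of the families, IFIT1B had 0 or 1 read in every library and IFITM5 at most 16. IFITM10 had 65 and 66 reads in the H929 scramble for shRNA1 and 23 and 14 with shRNA1 (-1.95 ± 0.29, limma adjusted p = 3.44e-05). The scramble for shRNA2 held 24 and 22 reads, lower than that for shRNA1 by -1.36 ± 0.29 (limma adjusted p = 0.00239), and against it shRNA1 was at -0.59 ± 0.29 (limma adjusted p = 0.0909). With shRNA2 it was at 0.01 ± 0.29 (limma adjusted p = 0.989).

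Genes that lie beside the clusters were counted too. Of 4 neighbours of the IFIT cluster, LIPA and PANK1 were tested, and neither changed in MM1.S. LIPA, which encodes lysosomal acid lipase and overlaps IFIT2 on the opposite strand by 65 exon bases, changed in H929 by -0.54 ± 0.11 with shRNA1 and 0.38 ± 0.11 with shRNA2 (limma adjusted p = 0.000449 and 0.00910). Of 12 tested neighbours of the IFITM cluster, shRNA1 gave 3 higher and 2 lower in MM1.S and 4 higher and 3 lower in H929. For shRNA2 these counts were 2 higher and 0 lower, then 0 higher and 2 lower. The shares of all genes given with the lists above apply to these counts too. NLRP6, an inflammasome sensor, rose with both hairpins in MM1.S (2.55 ± 0.48 and 2.06 ± 0.49, edgeR adjusted p = 0.00491 and 0.0136).

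The genes whose log2(CPM + 1) was most like a member's were found by Pearson's r over the libraries of a line, which share groups and depth, as a description. Over 8 H929 libraries and 11087 genes, IFIT3 was most like HERC5 (r = 0.984) and OAS2 (r = 0.979), both interferon-stimulated, then FBXO7 (r = 0.976). IFIT1 was most like C4orf3 (r = 0.973), HERC5 (r = 0.970) and SIRPB1 (r = 0.956). IFIT2 was most like CLDND1 (r = 0.994), SCPEP1 (r = 0.994) and BMP8B (r = 0.993), IFIT5 like ANKRD49 (r = 0.982), SEC31B (r = 0.976) and RTP4 (r = 0.964), and IFITM1 like LITAF (r = 0.993), GID4 (r = 0.986) and SUSD3 (r = 0.984). Over 6 MM1.S libraries and 10532 genes, IFIT3 was most like RAPGEF2, ING4 and TNRC6A (r = 0.9995, 0.998 and 0.997) and IFIT5 like RRAGC, CCSER2 and ZNF318 (r = 0.9992, 0.999 and 0.9986). So few libraries give a high r to some of so many genes.

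The authors' deposited tables gave IFIT3 a log2 fold change of 0.99 and 0.77 in MM1.S (adjusted p = 0.0002 and 0.00543) and -1.54 and -0.89 in H929 (adjusted p = 5.69e-07 and 0.0150). In the authors' deposited tables IFIT5 with shRNA1 in MM1.S was at 0.46 (adjusted p = 0.00734), where edgeR without the block gave 0.0707. For IFIT1 with shRNA2 in H929 the authors' deposited table gave -0.61 (adjusted p = 0.225) and for IFITM2 -0.93 (adjusted p = 0.168), where limma called both lower.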

How the data were processed

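Poly(A) RNA of 14 libraries was sequenced, and the submitters' processing notes name STAR 2.5.3a, DESeq2 1.24.0 and GRCh38. The counting tool, annotation and strand setting are not given in the sources used here. The deposited MM1.S table holds raw counts per gene, per the file headers. The deposited H929 table is named as raw counts too, but its values are a normalized signal that the authors made by dividing counts by 1 size factor per library: multiplied back, 100.0% of values were whole within 0.01. The authors' deposited comparison tables hold log2 fold changes and p-values. Of 58069 rows, 18 repeated identifiers were left out. By elimination, columns were matched to shRNA2 and to the second H929 scramble library for shRNA1.

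The test for MM1.S was edgeR 4.0.16 (quasi-likelihood, TMM, filterByExpr with a minimum count of 10, all 6 libraries). Since the H929 table does not hold counts, it was tested with limma 3.58.1 (trend) on log2(value + 1), keeping genes that reach 10 in 2 or more of its 8 libraries. The line difference used limma on the 14 libraries together, with median-of-ratios factors for MM1.S and contrasts within each table. A gene was called at a Benjamini-Hochberg adjusted p under 0.05. Levels are counts per 1 M reads in genes, for H929 from the recovered reads, and per kilobase of merged exon. The code was tested on simulated data. The criterion for that test was replaced after the first, a minimum share of changes recovered, failed for the line difference.

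The members and lists were chosen with earlier results of these data known. All members are named. From each list, genes past the threshold with both hairpins of a line, or up to 3 with the largest change past it, could be named, and a few are given; some list genes are not reported here. CMTR1, LIPA, CD81 and IFITM10 are among them or were added as partners or neighbours of the members after their values were seen. MM1.S libraries of the same replicate number deviated together (correlations 0.567 to 0.807 over 10821 genes), as paired libraries would, although no label says what the number stands for. The main MM1.S and line-difference fits leave this pairing out, and only the replicate block models it. MM1.S values are from the fit without the block, and blocked values are given where they change a call. H929 correlations were -0.175 to 0.215 over 11432 genes, which pairs nothing. Libraries of a group differed by 2.36 to 30.26 times counting noise (chi-square per degree of freedom), so none was a duplicate and counting noise understates the error. Alternatives were other scalings, tests, filters and pseudocounts, fits on the compared groups, the replicate block, leaving out each library and, in H929, other control libraries.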

Additional observations from a re-analysis of the deposited data

Results flagged for a closer look

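Effects that differed between the lines by the test of the difference itself, MM1.S minus H929, were those on IFIT3 (2.52 with shRNA1 and 1.75 with shRNA2), IFITM1 (5.04 and 3.58) and IFITM2 (3.24 and 4.70). With so few reads of IFITM1 and IFITM2 in the MM1.S scramble libraries, a fall of these genes there could not be seen. Effects that differed between the hairpins in H929, shRNA2 minus shRNA1, were those on IFIT2 (-1.28), IFIT5 (1.58) and IFITM2 (-2.35). Each H929 hairpin has its own control group, and these control groups differed in IFIT1, IFIT3, IFIT5, IFITM1 and IFITM2. In H929, IFITM2 was tested only through the libraries where it was high. Against the other control group, the line differences with shRNA1 were 1.66 for IFIT3, 2.71 for IFITM1 and 1.09 for IFITM2, the last no longer past the threshold. Groups of 2 libraries were too small for a check of single outlying libraries.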

How the results depend on the processing

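Of 599 recomputed values for single members, 527 kept their direction and side of the threshold, 30 lost their call, 26 gained one and 16 changed sign. Of 210 recomputed counts of members higher or lower, 185 stayed within 1.5 times the count reported and 25 did not. For the causes of these changes, the cause was not tested.

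Between the MM1.S hairpins, where 0 members were higher and 1 lower with shRNA2, 1 was higher with median-of-ratios factors, 1 with DESeq2, 1 with limma on log2 values, 1 with no filter, 1 with only the compared groups and 1 with the replicate block. There 0 were lower with DESeq2, 0 with limma and 2 with the replicate block, and leaving out a library could remove the call. These counts include IFITM1 and IFITM2, which passed the filter through the libraries where they were high. Of all genes, 36.8% were called in either direction in the main fit and 58.2% with the replicate block. Median-of-ratios factors called 6591 and only the compared groups 7020 of 17820 genes. Limma called 6607 of 17787. DESeq2 called 5771 and no filter 7531 of 37067. The replicate block changed no member's call beyond those given in the text. In H929, whose numbers do not pair the libraries, it left each member's call as it was, for instance IFIT3 with shRNA1 at -1.48.

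For the H929 hairpin difference, 1 member was lower with no filter and 1 with a pseudocount of 5, and leaving out a library gave 1 to 3 higher and 1 to 3 lower. Between the H929 scramble groups it gave 3 to 5 lower. With the other scramble group as control, shRNA1 gave 2 members higher and 1 lower, beside 63.8% of all genes called in either direction, and shRNA2 gave 0 higher, beside 39.5%. Of those higher with shRNA1, IFITM2 had passed the filter only through the shRNA1 libraries and their own scramble group. The line difference with shRNA2 was then higher for 5 members, beside 20.3% of all genes.

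Signs changed for members that had not passed, apart from IFITM1 with shRNA1 in H929 (0.66 against the other scramble group). IFIT5 with shRNA1 in H929 was at 1.15 against the other scramble group and 0.48 against all 4, and ranged from -0.50 to 0.11 with a library left out. IFITM2 there was at -0.01 with TMM scaling, -0.12 with edgeR on recovered reads and -0.01 with a pseudocount of 5, and ranged from -0.62 to 0.63. With a library left out, IFITM1 with shRNA2 in MM1.S ranged from -0.15 to 5.03, IFIT1 between the MM1.S hairpins from -0.15 to 0.23, and the line difference of IFIT5 with shRNA2 from -0.79 to 0.04. Against the other scramble group the line difference of IFIT5 was -0.67 with shRNA1 and 0.96 with shRNA2. For the H929 hairpin difference, only the compared groups is the same fit, since all 4 groups enter it. A fit that leaves a group with 1 library assumes that it varies like the others. No scaling moved the median of all genes by over 0.1. Depth limits IFIT2, IFITM1, IFITM2 and IFITM3 in MM1.S and IFITM2 and IFITM3 in H929.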
